A study of Mus musculus with 10 samples.

Results

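Cells answer misfolded protein through several programmes of chaperone and stress genes. Here 39 genes of these programmes, regulators among them, were followed through 10 mouse retinas. They were chosen by gene symbol from a table of 25905 genes, and all 39 have a row in it. They fall into 10 genes of the ATF4/CHOP arm, 4 endoplasmic reticulum (ER) stress sensors or their factors, 13 ER chaperones, 10 cytosolic heat shock genes and 2 genes of the mitochondrial chaperonin. The libraries came from the left and the right retina of 5 wild type C57BL/6J mice, numbered 61, 64, 65, 66 and 68, taken on postnatal day 34. A lens of −20 dioptres was fixed over 1 eye of each mouse on postnatal day 24, under ketamine and xylazine, and stayed for 10 days, while the fellow eye had none. The labels name the side of a retina and not which side wore the lens, so the groups are the 5 left and the 5 right retinas, and neither is a treated or a control group.

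In the unfolded protein response 3 sensors in the ER membrane report misfolded protein. PERK (gene Eif2ak3) slows translation and thereby lets the messenger of the transcription factor ATF4 be translated, and ATF4 in turn drives CHOP (gene Ddit3) and genes of amino acid supply. IRE1 (gene Ern1) splices the messenger of XBP1, and ATF6 is cut to release a transcription factor, and both raise chaperones inside the ER. The cytosol has its own programme under HSF1, which raises HSP70 and HSP90 chaperones and their helpers. Photoreceptors make large amounts of membrane protein in the ER, and these pathways are known to be engaged in inherited retinal degeneration. The deposited values count all messenger of a gene, so that splicing of Xbp1, translation of Atf4 and cutting of ATF6 cannot be read from them.

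Several ER chaperones share a sequence in front of their genes, which is shown first because ATF6 acts through it. The ER stress response element, to which NF-Y and ATF6 bind, was searched as CCAAT and CCACG with 9 bases between them. Both strands of the 250 bases before RefSeq gene starts (GRCm38.p6) were read. For a member, only the start nearest the deposited one was taken, while the windows of all genes hold every start. Other starts of Dnaja1 (3 in all) and of Atf5, Hsph1, Dnajb1 and Hspd1 (2 each) were not searched. The element lay before 7 of the 12 ER chaperone genes with an entry in the promoter table. It lay before 37 (0.113%) of the 32851 upstream windows of all genes. None of the 10, 3, 6 and 2 matched genes of the ATF4/CHOP arm, the sensors, the cytosolic group and the mitochondrial group held it. The matches are printed 5′ to 3′ on the strand of the gene, with the element in capitals and up to 20 bases on either side (5 where the window meets an annotated exon). Matches that begin with CGTGG are the element on the other strand.
Hspa5, chr2:34772020-34772048, plus strand: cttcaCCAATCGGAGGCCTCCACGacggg
Hsp90b1 (upstream match), chr10:86705618-86705676, minus strand: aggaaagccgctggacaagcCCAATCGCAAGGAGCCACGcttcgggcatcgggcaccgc
Hsp90b1 (downstream match), chr10:86705513-86705571, minus strand: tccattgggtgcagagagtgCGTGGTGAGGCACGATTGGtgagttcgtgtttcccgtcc
Calr, chr8:84847055-84847113, minus strand: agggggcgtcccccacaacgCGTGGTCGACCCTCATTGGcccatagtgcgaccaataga
Canx, chr11:50325780-50325838, minus strand: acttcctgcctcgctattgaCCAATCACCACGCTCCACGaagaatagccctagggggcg
Pdia6, chr12:17266471-17266529, plus strand: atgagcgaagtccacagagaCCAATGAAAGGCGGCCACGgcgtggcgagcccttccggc
Dnajc3, chr14:118937807-118937865, plus strand: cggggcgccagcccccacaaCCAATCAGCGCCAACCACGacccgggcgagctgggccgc
Creld2, chr15:88819500-88819558, plus strand: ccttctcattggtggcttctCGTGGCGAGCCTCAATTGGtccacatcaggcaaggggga

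The other motifs were found before fewer members. The C/EBP-ATF response element, through which ATF4 acts, was searched as TGATGNAA. It was found before Atf3, Chac1 and Asns of the ATF4/CHOP arm and before Herpud1, against 3.45% of all windows. The heat shock element, searched as GAA, TTC and GAA, or TTC, GAA and TTC, with 2 bases between the triplets, was found before Hspe1 alone, where a match of each form overlaps the other, against 0.466% of all windows. A cAMP response element, TGACGTCA, lay before Ppp1r15a (1.55% of all windows), and the unfolded protein response element TGACGTGG before none (0.563%). The windows of the ATF4/CHOP genes with the C/EBP-ATF element and of Hspe1 with the heat shock element follow. Those of Herpud1 and Ppp1r15a are not printed. Hspe1 is of the mitochondrial group, and 0 of the 6 searched cytosolic genes held the heat shock element. TTGCATCA is the C/EBP-ATF element on the other strand. A match is a run of letters and not a shown binding site. The search allowed no mismatch and took only the nearest start of a member, so the lack of a match does not show that a gene lacks the element. Hspa8, Hsp90aa1, Hsp90ab1 and Hsf1 of the cytosolic group had no entry in the promoter table and were not searched.
Atf3, chr1:191183416-191183463, minus strand: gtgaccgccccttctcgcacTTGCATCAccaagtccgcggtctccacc
Chac1, chr2:119351029-119351076, plus strand: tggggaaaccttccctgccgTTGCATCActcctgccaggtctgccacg
Asns, chr6:7693220-7693237, minus strand: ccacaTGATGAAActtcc
Hspe1, chr1:55088054-55088081, plus strand: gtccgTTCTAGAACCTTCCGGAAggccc

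The tissue carried its labelled identity in every library. The 10 genes of bipolar, amacrine and ganglion cells summed to 523 to 556 CPM, and 6 genes of Mueller glia to 921 to 1113 CPM. CPM is a count scaled to the size of its library, and 1 CPM stood for 89.2 to 113.4 counts by the size of the smallest steps in each library. A pair of libraries stood apart by RNA of another tissue: 12 lens genes summed to 894 CPM in the right eye of mouse 65 (8.95 to 129.4 CPM elsewhere), and 12 skeletal muscle genes to 281 CPM in the left eye of mouse 68 (28.6 to 34.9 CPM elsewhere). The sum of 14 immediate early genes was high in both eyes of mouse 61 (86.5 CPM left, 72.4 CPM right), and elsewhere it ran from 30.6 to 37.0 CPM. The sum of 7 fibroblast genes was higher on the right in each of the 5 mice, at 13.1 to 17.7 CPM in left and 18.3 to 23.5 CPM in right eyes. By its label, the library of the right eye of mouse 64 lost reads of 1 mate to file corruption. The part of that in the differences of mouse 64 given below was not tested. In whole tissue, fewer cells of a type and less RNA per cell cannot be told apart.

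The retina held these transcripts at very different levels, most of them within a narrow range. For 29 of the 39 genes the highest library was less than 1.5 times the lowest, and for 35 less than 2 times. The widest were Chac1 (2.55 times), Atf5 (2.40), Hspb1 (2.13) and Sdf2l1 (2.12). These counts were not taken over all genes. Levels between genes are compared per kilobase of annotated exon. Hsp90aa1, the inducible cytosolic HSP90, was highest at 90.5 ± 3.52 CPM per kilobase (SD over 10 libraries), followed by Hspa8, the constitutive HSP70, at 66.5 ± 4.31. The ER chaperones Calr (31.9 ± 2.56) and Hsp90b1 (30.2 ± 2.83) came next, then the constitutive cytosolic HSP90, Hsp90ab1 (26.4 ± 1.39), Atf4 (24.8 ± 2.26) and Canx (24.4 ± 1.10). From Calr to Canx the mean ± SD intervals of neighbours in this order overlap. Hspa5, which encodes the ER HSP70 BiP, was at 14.8 ± 1.24 CPM per kilobase. At the foot of the order stood Sdf2l1 (0.56 ± 0.147), Atf3 (0.484 ± 0.0847), Hspb1 (0.459 ± 0.105), Chac1 (0.385 ± 0.108) and Trib3 (0.29 ± 0.068). Exon length was taken over all annotated transcripts, so the value of a gene with long rare exons is low.

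**Figure D1:**
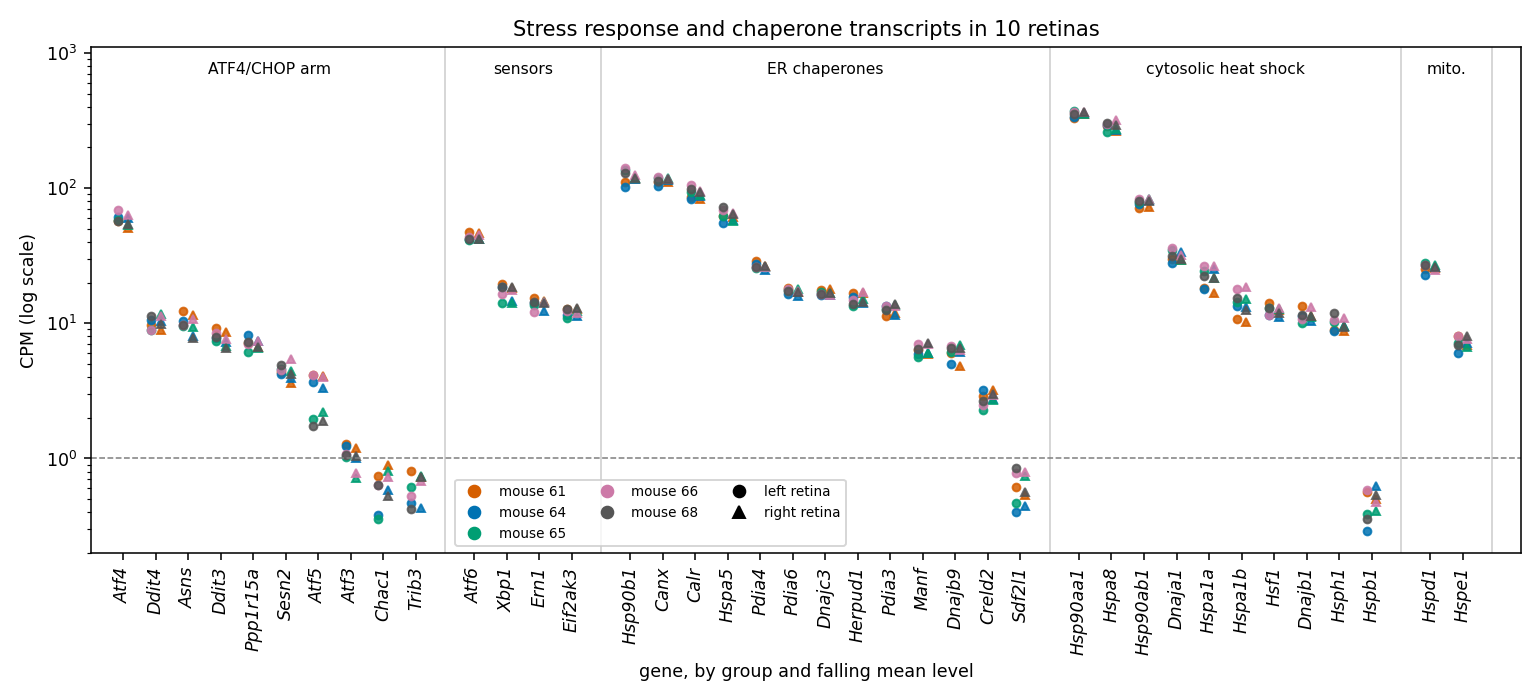
Level of each of the 39 genes in CPM (log axis) in 10 retinas, by group; circles are left and triangles right retinas, coloured by mouse, and the dashed line is 1 CPM, the mean below which a gene was not tested. The 10 points of most genes lie close together, Atf5 splits into mice 65 and 68 (1.74 to 2.21 CPM) and the other mice (3.33 to 4.18 CPM), and Trib3, Chac1, Sdf2l1 and Hspb1 lie below the line.

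Differences between the right and left retina were small in every group, and no member passed. Right minus left was fitted on log2(CPM + 1) with limma over the 14210 genes averaging 1 CPM or more, with the mouse as a block. That filter kept 35 of the 39 members. None of the 35 passed at an adjusted p of 0.05 (0% of all genes did). At an unadjusted p under 0.05 there were 2, Atf4 and Ddit3, beside 2.34% of all genes. The 95% interval of the difference lay within 0.25 log2 units of 0 for 33 of the 35, a count not taken over all genes. Of the 35, 18 were lower on the right (48.9% of all genes were) and 17 higher.

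The ATF4/CHOP arm had the lowest median of the 5 groups. Its 8 tested genes had a median difference of −0.08 log2 units, beside 0.002 over all tested genes, and 6 of the 8 were lower on the right. The 2 untested genes of the arm had the higher mean on the right, Trib3 at 0.665 CPM against 0.568 on the left (higher in 3 of 5 mice) and Chac1 at 0.711 CPM against 0.55 (4 of 5). Of the 8 tested genes of the arm, 8, 8, 5, 4 and 7 were lower on the right in mice 61, 64, 65, 66 and 68. Of all 14210 tested genes, 8810, 7937, 5294, 5627 and 7515 were lower on the right in the same mice, so these counts vary between mice over all genes too. The medians of the arm in those mice were −0.09, −0.11, −0.03, 0.01 and −0.15, where all tested genes had −0.04, −0.02, 0.04, 0.04 and −0.01. The 12 tested ER chaperones had medians of −0.002, 0.02, 0.03, −0.03 and 0.02, the 9 tested cytosolic genes −0.08, 0.09, −0.02, 0.03 and −0.06, and the 4 sensors −0.05, −0.09, 0.06, 0.09 and −0.005. The 2 mitochondrial genes had −0.08, 0.20, −0.08, −0.10 and 0.08. None of the 5 groups kept a sign over the mice. Over all mice the medians of the sensors, ER chaperones, cytosolic genes and mitochondrial chaperonin were 0.01, 0.007, −0.03 and 0.004. The median of the ATF4/CHOP arm was −0.02 without mouse 61, where Atf3 falls under the filter, −0.10 without mouse 66 and −0.05 without mouse 68.

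Values of 5 are given below in the order of mice 61, 64, 65, 66 and 68. Ddit3 (chromosome 10, bases 127290774 to 127296288 of GRCm38), which encodes the pro-apoptotic factor CHOP, stood at 9.26, 7.85, 7.46, 8.46 and 7.87 CPM in left eyes and 8.67, 7.27, 6.78, 7.64 and 6.62 CPM in right eyes. Every mouse had the lower value on the right, by less than the difference between mice, so that the sides overlap. The mean difference was −0.13 log2 units, 95% interval −0.24 to −0.02, and it had an unadjusted p of 0.0255 and a limma adjusted p of 0.9996. Atf4 (chromosome 15, bases 80255184 to 80257541), the master factor of the arm, measured 57.1, 60.7, 58.3, 69.4 and 57.3 CPM in left eyes and 50.7, 60.4, 53.5, 63.3 and 54.5 CPM in right eyes. Its right eye was the lower in each of the 5 mice, in mouse 64 by 0.006 log2 units alone, with a mean of −0.10 log2 units, 95% interval −0.18 to −0.02, and an adjusted p of 0.9996. Atf3 (chromosome 1, bases 191170296 to 191218039), a stress-induced factor downstream of ATF4, was near the filter at 1.28, 1.25, 1.02, 1.07 and 1.06 CPM in left eyes and 1.20, 1.01, 0.714, 0.782 and 1.04 CPM in right eyes. Its sides overlap.

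Some immediate early and fibroblast genes also had the same sign of right minus left in most mice. Of the former, which respond to stimulation, Egr1 (mean right minus left −0.38 log2 units) and Nr4a1 (−0.13) were lower in the right eye of each mouse, and Fos (−0.16) in that of 4 mice. Of the latter, Col1a2 was the higher in every right eye, by 0.40 log2 units. Egr1, Nr4a1, Fos and Col1a2 each had an unadjusted limma p under 0.05. The other tested immediate early genes, Fosl2, Jun, Junb, Ier2 and Dusp1, had smaller means of −0.003, 0.05, −0.06, −0.03 and −0.07 log2 units. None of these passed (adjusted p = 0.9996), and their part in the values of Ddit3, Atf4 and Atf3 was not tested.

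Ddit3, Atf4 and Atf3 were the members that went 1 way in 5 of 5 mice, all of them down. Of all genes 4.79% went 1 way in 5 of 5 mice, 2.01% down and 2.78% up. The count depends on the scaling. With each library rescaled to the same total of listed genes, Atf3 and Ddit3 were lower in 5 of 5 mice, and with library medians made equal Ddit3 alone was. The mean of Atf3 was −0.14 log2 units, 95% interval −0.29 to 0.02, and moved from −0.25 with a pseudocount of 0.1 CPM to −0.04 with 5 CPM.

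The remaining genes of the arm varied without a common side. Ddit4, an inhibitor of mTORC1, measured 9.71, 10.6, 8.97, 8.98 and 11.3 CPM in left eyes and 8.85, 10.3, 11.7, 11.3 and 9.89 CPM in right eyes, higher on the right in mouse 65 and mouse 66 and lower in the rest. Asns, the asparagine synthetase and a standard ATF4 target, was at 12.3, 10.5, 9.62, 9.69 and 9.68 CPM in left eyes and 11.5, 8.10, 9.43, 10.7 and 7.77 CPM in right eyes. It was lower on the right in 4 mice and higher in mouse 66 (mean −0.12 log2 units, 95% interval −0.28 to 0.04). Ppp1r15a, whose product GADD34 restores translation, stood at 7.12, 8.15, 6.11, 6.98 and 7.28 CPM in left eyes and 6.66, 7.34, 6.60, 7.36 and 6.65 CPM in right eyes, with overlapping sides. Sesn2, a stress-induced regulator of mTORC1, ranged over 3.62 to 5.46 CPM. Trib3 and Chac1, both raised by ATF4 and CHOP under strong stress, lay under the filter at 0.425 to 0.812 and 0.354 to 0.902 CPM.

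**Figure D2:**
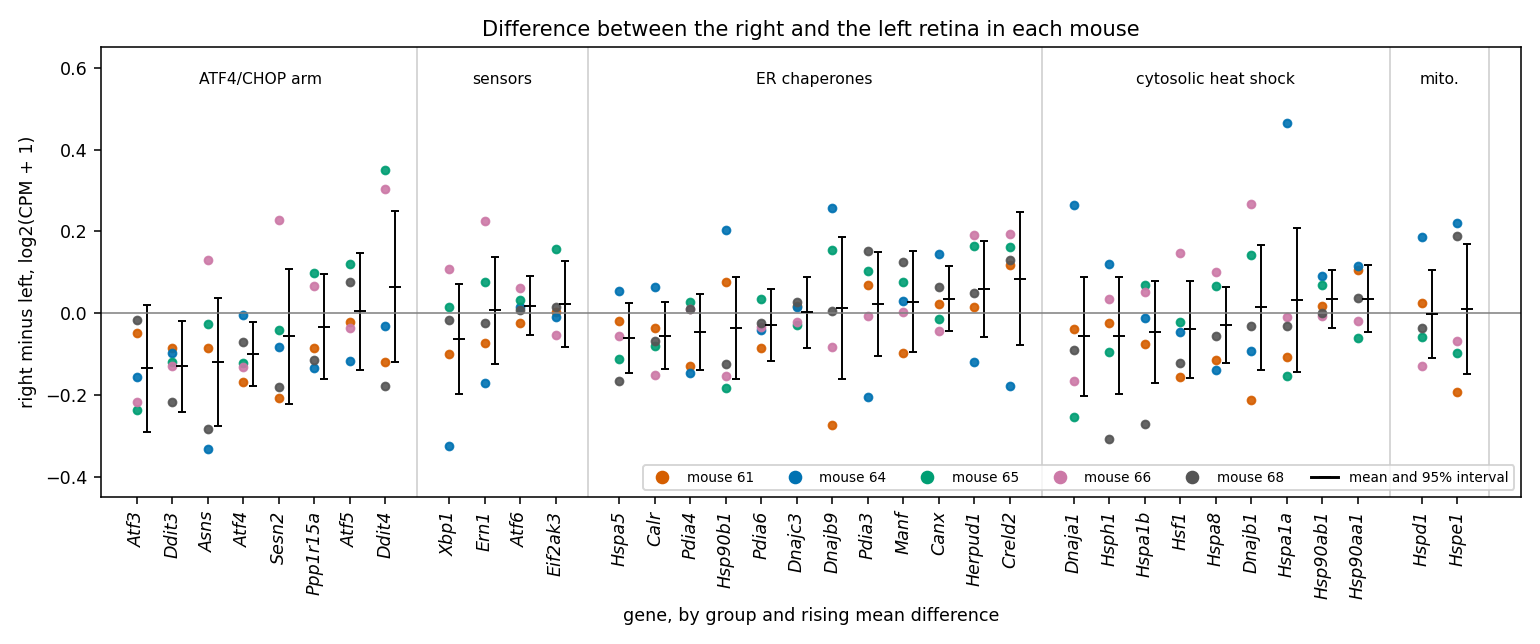
Right minus left difference in log2(CPM + 1) of the 35 tested genes, by group: coloured points are the 5 mice, the black bar is the mean with its 95% interval. The ATF4/CHOP genes Atf3, Ddit3 and Atf4 have all 5 points below 0, while each tested ER chaperone and cytosolic gene has points on both sides of 0.

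Among the sensors and their factors, Xbp1 had the lowest unadjusted p between sides and 1 wide difference. It measured 19.6, 18.6, 14.1, 16.4 and 18.7 CPM in left eyes and 18.2, 14.7, 14.2, 17.8 and 18.4 CPM in right eyes, so that only mouse 64 differed by more than 0.3 log2 units (−0.32). Atf6 was at 47.6, 41.9, 41.3, 43.4 and 42.2 CPM in left eyes and 46.8, 42.4, 42.3, 45.4 and 42.4 CPM in right eyes, with sides that overlap. Ern1 was at 15.4, 14.1, 13.6, 12.2 and 14.4 CPM in left eyes and 14.6, 12.4, 14.4, 14.4 and 14.1 CPM in right eyes, with sides that overlap. Eif2ak3 ranged over 10.9 to 12.9 CPM. Mean differences of these 4 genes ran from −0.06 (Xbp1) to 0.02 (Eif2ak3).

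The ER chaperones showed no shared direction between the eyes. Hspa5, encoding BiP, which holds the 3 sensors inactive, stood at 61.9, 55.6, 61.9, 68.7 and 72.2 CPM in left eyes and 61.1, 57.8, 57.2, 65.99 and 64.3 CPM in right eyes (mean −0.06 log2 units, 95% interval −0.15 to 0.03). It was lower on the right in 4 mice and higher in mouse 64. Hsp90b1, the ER HSP90 known as GRP94, measured 110.5, 102, 135, 139.8 and 130.0 CPM in left eyes and 117, 118, 119, 126 and 119 CPM in right eyes, higher on the right in mouse 61 and in mouse 64 and lower in the other 3. These directions differ by mouse. Calr, the lectin chaperone calreticulin, was at 85.6, 83.5, 94.2, 106 and 98.7 CPM in left eyes and 83.3, 87.3, 89.0, 95.6 and 94.0 CPM in right eyes. Dnajb9, a BiP cofactor, was at 6.07, 4.97, 6.15, 6.76 and 6.58 CPM in left eyes and 4.84, 6.13, 6.96, 6.33 and 6.61 CPM in right eyes, lower on the right by 0.27 log2 units in mouse 61 and higher by 0.26 in mouse 64. The 7 genes with the ER stress response element had mean differences from −0.06 to 0.08, and 4 of the 7 were lower on the right.

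The other ER members, apart from the weakly expressed Sdf2l1, stayed within narrow bounds. The disulphide isomerases Pdia3, Pdia4 and Pdia6 ranged over 11.3 to 13.9, 24.6 to 29.1 and 15.9 to 18.2 CPM. Canx, the membrane partner of calreticulin, spanned 104 to 121 CPM, and the BiP cofactor Dnajc3, which inhibits PERK, 16.1 to 17.8 CPM. Herpud1, a part of ER-associated degradation, spanned 13.4 to 17.0 CPM. The secreted stress proteins Manf and Creld2 spanned 5.64 to 7.13 and 2.30 to 3.24 CPM, and Sdf2l1, a BiP partner, 0.401 to 0.85 CPM, under the filter. None of the 12 tested ER chaperones passed, and none had an unadjusted p under 0.05 between sides.

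The cytosolic genes also went both ways. Hspa8 stood at 287, 295, 262, 298 and 302 CPM in left eyes and 265, 268, 274, 319 and 291 CPM in right eyes, with sides that overlap. Hsp90aa1 was at 330.0, 334, 370.3, 369 and 356 CPM in left eyes and 355, 361, 355, 364 and 365 CPM in right eyes. Hsp90ab1 measured 71.7, 76.8, 79.0, 82.9 and 80.7 CPM in left eyes and 72.5, 81.8, 83.0, 82.5 and 80.7 CPM in right eyes. Both HSP90 genes averaged lowest in mouse 61, and their sides overlap. Dnaja1, an HSP40 cofactor of HSP70, was at 30.1, 27.7, 35.0, 36.3 and 31.7 CPM in left eyes and 29.2, 33.5, 29.2, 32.2 and 29.7 CPM in right eyes, higher on the right in mouse 64 alone. Dnajb1, the HSP40 that HSF1 induces, was at 13.3, 11.2, 9.97, 10.8 and 11.6 CPM in left eyes and 11.4, 10.5, 11.1, 13.2 and 11.3 CPM in right eyes. Hsf1 itself ranged over 11.2 to 14.1 CPM, and the small heat shock protein gene Hspb1 over 0.292 to 0.624 CPM, under the filter. 

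The mitochondrial chaperonin genes are a pair on chromosome 1 that overlap by 112 bases on opposite strands. Hspd1, which encodes HSP60, was at 25.2, 22.8, 27.97, 27.1 and 26.8 CPM in left eyes and 25.7, 26.1, 26.8, 24.7 and 26.2 CPM in right eyes. Hspe1, which encodes its lid HSP10, was at 8.10, 6.03, 7.18, 8.03 and 6.89 CPM in left eyes and 6.96, 7.19, 6.65, 7.62 and 7.995 CPM in right eyes. Right minus left was −0.003 and 0.01 log2 units, and both genes were higher on the right in mouse 64 and lower in mouse 65 and mouse 66.

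With the lens on an unnamed side, the size of the difference within each pair of eyes was tested too, by the mean square of the 5 differences against genes of like level. None of the 35 members passed (limma prior, Benjamini-Hochberg; 0.338% of all genes did). At an unadjusted p under 0.05 there was 1, Hspa1a, beside 4.71% of all genes. Hspa1a, an inducible HSP70 gene, measured 18.2, 18.1, 24.3, 26.8 and 22.2 CPM in left eyes and 16.8, 25.4, 21.7, 26.6 and 21.7 CPM in right eyes. Its fellow eyes differed most in mouse 64, where the right was higher by 0.47 log2 units, against −0.15 to −0.01 in the other 4 mice (unadjusted p = 0.0336, adjusted p = 0.985). Without mouse 64 the root mean square difference fell from 0.23 to 0.10 log2 units. By its label, the library of the right eye of mouse 64 lost reads of 1 mate to file corruption, and the part of that in this value was not tested.

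Between animals 2 members passed. The moderated F-test of limma on the 5 animals called Atf5 and Hspa1b, 2 of the 35, beside 0.57% of all genes. At an unadjusted p under 0.05 it had 11 of 35, beside 13.8% of all genes. By group these 11 were 4 of 8 ATF4/CHOP genes, 2 of 4 sensors, 2 of 12 ER chaperones, 3 of 9 cytosolic genes and none of the 2 mitochondrial genes. The median range of the mouse means was 0.28 log2 units in the ATF4/CHOP arm, 0.17 in the sensors, 0.23 in the ER chaperones and 0.21 in the cytosolic group, beside 0.21 over all tested genes. Groups were not tested against each other.

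Atf5 (chromosome 7, bases 44812256 to 44816658, minus strand), which encodes a factor related to ATF4 that ATF4 and CHOP induce and that acts in the mitochondrial stress response, had the largest difference between animals. It stood at 4.18, 3.70, 1.95, 4.15 and 1.74 CPM in left eyes and 4.10, 3.33, 2.21, 4.02 and 1.89 CPM in right eyes. Both retinas of mice 65 and 68 were lower than every retina of mice 61, 64 and 66, with a gap from 2.21 to 3.33 CPM. The range of mouse means was 0.87 log2 units (adjusted p = 0.00652), while fellow eyes differed by 0.02 to 0.12 log2 units. Without mouse 68 the adjusted p was 0.068 (range 0.74), and without mice 65 and 68 it was 0.58 (range 0.19).

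In the same mice lens genes summed to 8.95 CPM (left) and 894 CPM (right) in mouse 65, and muscle genes to 281 CPM (left) and 34.9 CPM (right) in mouse 68. Their part in the level of Atf5 was not tested. Atf5 overlaps Nup62 (6.44 CPM on average) by 571 bases and Il4i1 by 272 bases, both on the opposite strand, and whether the authors counted by strand is not given in the sources used here. In no other gene of the arm were all 4 retinas of mice 65 and 68 below every other retina. In mice 65 and 68 Atf4 averaged 55.9 and 55.9 CPM, between 53.9 in mouse 61 and 66.4 in mouse 66, and Ddit3 averaged 7.12 and 7.24 CPM, beside 7.56 to 8.97 in the other 3.

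**Figure D3:**
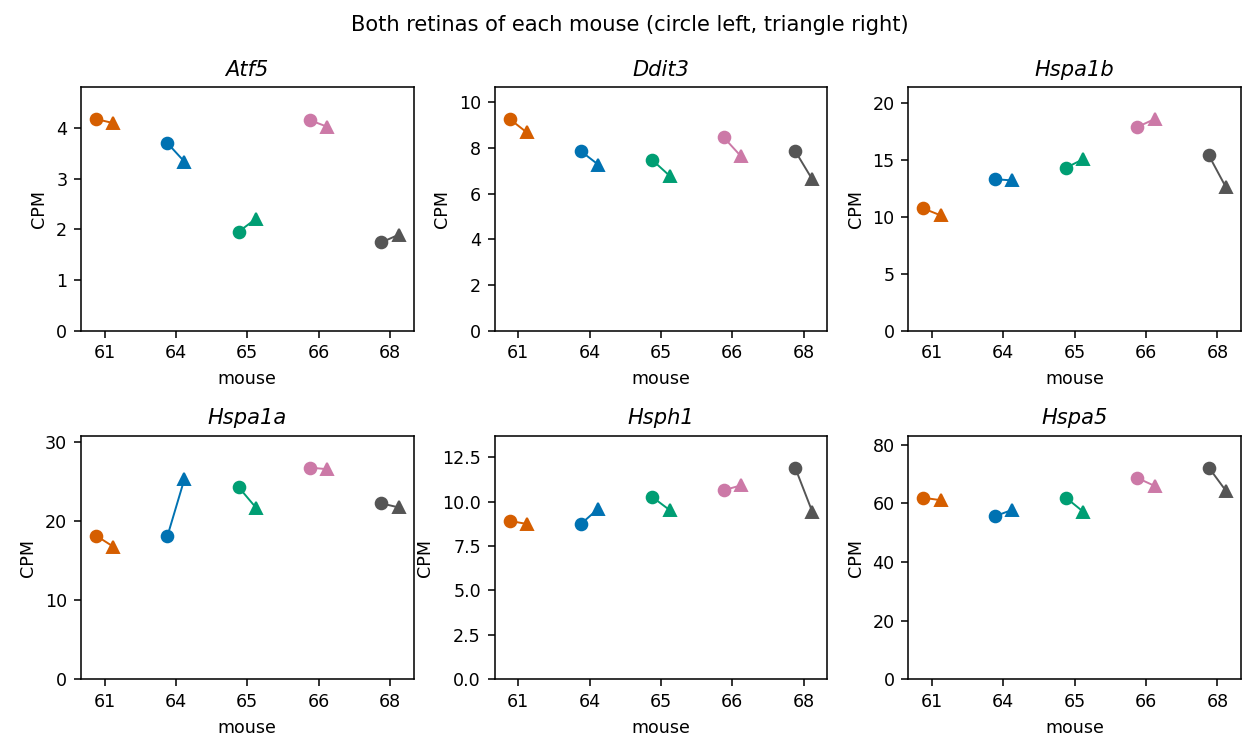
Level in CPM of 6 genes in both retinas of each mouse (circle left, triangle right, joined within a mouse; axes start at 0). Atf5 is low in both eyes of mice 65 and 68, Hspa1b is lowest in both eyes of mouse 61 and highest in both eyes of mouse 66, and the fellow eyes of mouse 64 differ in Hspa1a.

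Hspa1b (chromosome 17, bases 34956436 to 34959238), the second inducible HSP70 gene, measured 10.8, 13.3, 14.3, 17.9 and 15.4 CPM in left eyes and 10.2, 13.2, 15.1, 18.6 and 12.6 CPM in right eyes. Mouse 61 was lowest and mouse 66 highest in both eyes, with means of 10.45 and 18.3 CPM (range 0.75 log2 units, adjusted p = 0.029). Hspa1a (chromosome 17, bases 34969190 to 34972156) had the same lowest and highest mouse, at 17.5 and 26.7 CPM on average (range 0.58, adjusted p = 0.265, and 0.0139 without mouse 64). The pair lie next to each other on chromosome 17, and 62.3% of the 50-base stretches of the Hspa1b transcript also occur in Hspa1a, so the split of reads between them depends on a counting rule that is not known. Summed to 1 value they had a range of 0.67 and an adjusted p of 0.0721, a fit added after seeing the data. The call of Hspa1b was also lost without mouse 61 (0.522), without mouse 66 (0.182) and with no filter (0.0542).

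Several partners of these HSP70 genes had the same extremes. Of the 9 tested cytosolic genes 6 (Hspa1a, Hspa1b, Hsph1, Hsp90aa1, Hsp90ab1 and Dnaja1) had their lowest mean in mouse 61 and their highest in mouse 66, beside 5.92% of all genes, and so did 8 of 43 other cytosolic chaperones, Chordc1, St13 and Bag2 among them. The order was not limited to cytosolic genes, since Atf4, Sesn2, Calr and Pdia3 had it too. They averaged 53.9, 3.98, 84.5 and 11.6 CPM in mouse 61 and 66.4, 4.99, 100.9 and 13.4 CPM in mouse 66. This order was noticed in the data, and Hspa1a and Hspa1b, in which it is described above, are counted among the 6. As 62.3% of the 50-base stretches of Hspa1b also occur in Hspa1a, these genes are not independent of each other. This count and those below for other settings carry no test. Hsph1, an HSP110 that recharges HSP70, stood at 8.91, 8.75, 10.2, 10.6 and 11.9 CPM in left eyes and 8.74, 9.60, 9.53, 10.9 and 9.43 CPM in right eyes, and its left retina was highest in mouse 68. In the left retinas alone 2 of the 9 genes had this order (5.72% of all genes) and in the right retinas alone 4 (5.12%). With libraries rescaled to the same total of listed genes 7 did, beside 10.8% of all genes. Dnajb1 and Hsf1, in contrast, averaged highest in mouse 61, at 12.4 and 13.35 CPM. The immediate early genes, which stood highest in mouse 61, are given above, and their part in this order was not tested.

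**Figure D4:**
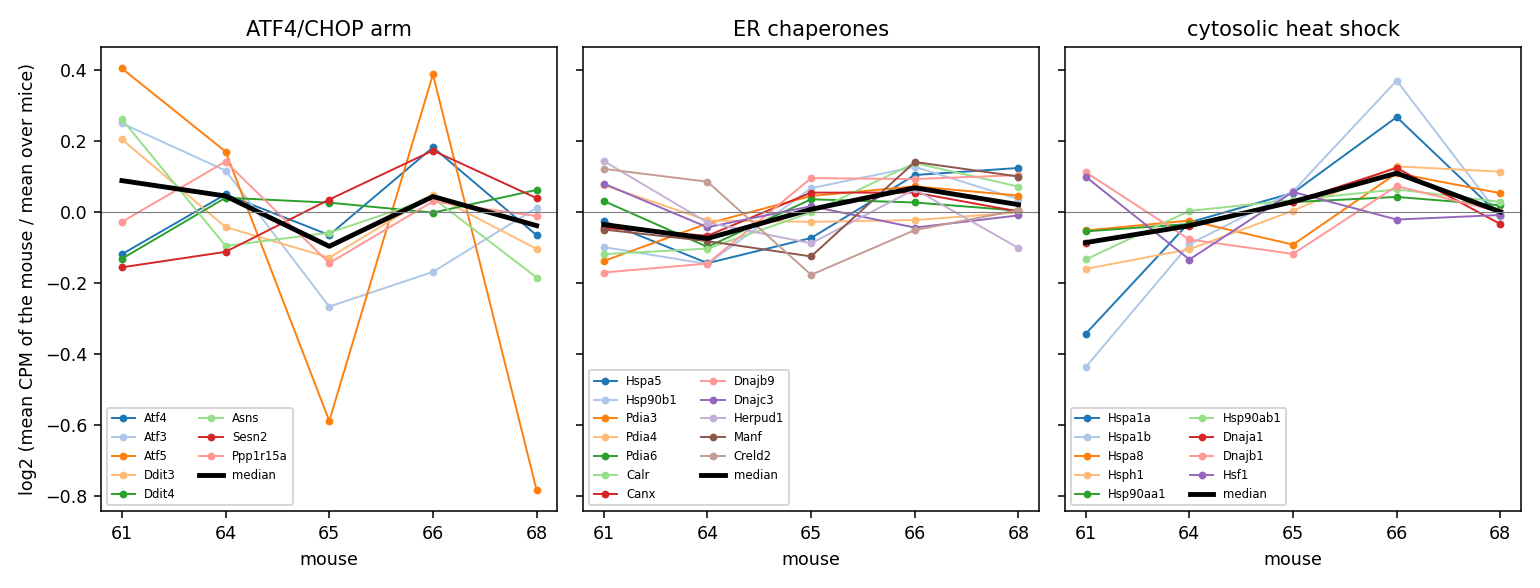
Mean CPM of each mouse relative to the mean over mice (log2) for the tested genes of 3 groups; thin lines join the values of a gene, the thick line is the median, and mice have no order. The cytosolic median is −0.09 in mouse 61 and 0.11 in mouse 66, that of the ER chaperones is lowest in mouse 64 (−0.08) and highest in mouse 66 (0.07), and Atf5 leaves the ATF4/CHOP arm in mice 65 and 68.

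Of the ER group, Calr and Hspa5 were the genes with the lowest p between mice, and neither passed (limma adjusted p = 0.217 and 0.224). Hspa5 averaged 67.3 and 68.3 CPM in mice 66 and 68 and 56.7 to 61.5 CPM in the other 3, and Calr 100.9 and 96.4 CPM beside 84.5 to 91.6 CPM. Other genes with the ER stress response element were mixed. Hsp90b1 averaged highest in mouse 66 (132.7 CPM), like Calr, and Canx was highest in mice 65 and 66 (118.9 CPM in each). Dnajc3 and Creld2 were highest in mouse 61 (17.7 and 3.06 CPM) and Pdia6 in mouse 65 (17.7 CPM). Of the sensors, Xbp1 and Atf6 had an unadjusted p under 0.05 and adjusted p of 0.269 and 0.332, with Atf6 highest in mouse 61 at 47.2 CPM and Xbp1 lowest in mouse 65 at 14.2 CPM. Atf4 came nearest to the threshold after Atf5 and Hspa1b, with its highest mean in mouse 66 (adjusted p = 0.168).

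No gene of the wider pathways passed between the sides. Of 33 tested genes among 40 other ATF4 pathway genes, 51 of 55 other genes of ER folding, degradation and transport, 43 of 47 other cytosolic chaperones and 15 of 15 genes of mitochondrial proteostasis, 0 passed right against left with limma (0% of all genes). At an unadjusted p under 0.05 there was 1, the cystine transporter gene Slc7a11, which was higher on the right, beside 2.34% of all genes. None of the 4 lists had a gene passing between mice (0.57% of all genes did), with Gadd45a (adjusted p = 0.0857), Cdk2ap2 (0.163), Cct2 (0.236) and Grpel1 (0.242) at the head of each. The lists were drawn up for this report, and a place in a list does not state the function of a gene, Cdk2ap2 included. The medians of right minus left were 0.002, 0.008, −0.002 and 0.02 log2 units.

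Between fellow eyes 1 of these genes passed, beside 0.338% of all genes. Nupr1, a stress-induced chromatin protein gene of the ATF4 pathway, stood at 2.88, 3.08, 1.45, 3.20 and 1.33 CPM in left eyes and 2.39, 3.12, 10.3, 4.08 and 1.49 CPM in right eyes, with 1 high library, the right retina of mouse 65 (root mean square difference 1.00 log2 units, adjusted p = 0.0443). That library held 894 CPM of lens genes, 10 of 12 of which had a mean of at least 1 CPM, beside 8.95 to 129.4 CPM in the others. Without mouse 65 the difference was 0.17 and the adjusted p 0.989, and it was also over the threshold without mouse 61 (0.0572) or mouse 68 (0.063). Slc7a11 followed at 5.11, 6.19, 2.03, 4.28 and 1.53 CPM in left eyes and 5.43, 6.50, 6.80, 3.80 and 5.62 CPM in right eyes, lowest in the left retinas of mice 65 and 68 (0.87 log2 units, adjusted p = 0.0586). Without mice 65 and 68 its difference was 0.10 log2 units. In the left retinas of mouse 65 and mouse 68 lens genes summed to 8.95 and 26.25 CPM, and muscle genes to 30.3 and 281 CPM. Fibroblast genes were lowest in these libraries, at 13.1 and 13.7 CPM (16.05 to 23.5 CPM elsewhere). The part of the lens, muscle and fibroblast RNA in these values was not tested. Among the other ER genes Ssr2 had the lowest p between fellow eyes (adjusted p = 0.987), and no mitochondrial gene had an unadjusted p under 0.05.

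Reads of several members may be shared with copies. Of all members 8 had more than 10% of their 50-base transcript stretches in another annotated gene: Hspa1a and Hspa1b with each other, and Hspa8 (38.6%), Hsp90aa1 (47.5%), Dnaja1 (11.9%), Hspb1 (48.8%), Hspd1 (39.7%) and Hspe1 (18.4%) with pseudogenes or other annotated copies. Levels of these genes carry that uncertainty, and none of the ER chaperones or ATF4/CHOP genes is among them. Manf lies across Dcaf1 on the opposite strand and overlaps Rbm15b on its own strand.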

How the data were processed

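Total RNA of 10 retinas was sequenced after removal of ribosomal RNA with a strand-specific kit, per the labels' protocols. Per the submitters' processing notes, STAR and Partek were used with GRCm38 (mm10); their versions, the counting rule and any gene filter were not given in the sources used here. Values the authors deposited are CPM with 0.0001 added, a unit read from the values, in which low entries step by a fixed amount within each library. The step was searched in a preset range, and 90.9% to 91.7% of low values were whole multiples of it within a tolerance of 0.1, too few to recover reads. By that step 1 CPM is 89.2 to 113.4 counts, and the listed genes sum to 321661 to 346696 CPM.

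The 0.0001 was taken off and log2(CPM + 1) was analysed, a scale that understates change in weak genes, where a gene averaged 1 CPM or more. Right against left, with the mouse as a block, and the mouse terms were fitted with limma 3.58.1 (R 4.3.3, variance trend, Benjamini-Hochberg over all tested genes, threshold 0.05, two-sided for the sides). Fellow eyes were compared by the mean square of 5 differences against limma's trend prior, one-sided. The tests were tried on simulated data, where the mouse and fellow-eye tests made more false calls than the threshold allows. These calls were not split by the variability of the gene. The calls of Atf5, Hspa1b and Nupr1 carry that limit. Both retinas of a number come from 1 animal, and their deviations from the side means correlated across genes at 0.143 to 0.607. Group medians carry no test. Other pseudocounts, filters, scalings, no block, no variance trend and leaving out mice were tried.

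Promoters were from RefSeq (33 of 39 genes matched), exon lengths and transcripts from GENCODE M21 on the same build. Deposited coordinates are printed, less 1 at the stop, which then equals the GENCODE end. The RefSeq start of Atf3 lies 34706 bases inside the deposited gene. Full values are given for a list of 15 genes and for the 2 lowest p of each group and test; of other pathway genes, those that pass or have the lowest p, of which 1 is not reported here. Members and lists were chosen with earlier results of these data known.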

Additional observations from a re-analysis of the deposited data

Results flagged for a closer look

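Among 78 sets of 5 retinas (39 genes, each side), 5 had 1 retina far from the other 4 by Dixon's test, which flags about 1 in 20 by chance. In the left retinas Atf4 was at 69.4 CPM in mouse 66 (57.1 to 60.7 CPM in the other 4). The right retina of mouse 64 was low in 3 genes: Trib3 at 0.432 CPM (0.677 to 0.747 in the other right retinas), Ern1 at 12.4 CPM (14.1 to 14.6) and Pdia4 at 24.6 CPM (26.1 to 26.5). This library is the one labelled as having lost reads of 1 mate, and the part of that in the low values was not tested. The right retina of mouse 61 had Hsp90ab1 at 72.5 CPM, beside 80.7 to 83.0 CPM in the other right retinas, and its left retina was as low, at 71.7 CPM.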

How the results depend on the processing

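No gene passed right against left under any setting run, including the fit with no replicate block (0 genes, and 0 members at an unadjusted p under 0.05 in place of 2). Without mouse 61, 64, 65, 66 or 68 those members numbered 1, 5, 0, 1 and 1. The 5 came without mouse 64, whose right library lost reads of 1 mate, and the part of that was not tested. The 5 group medians moved by less than 1 SD over mice; that of the ATF4/CHOP arm stayed below 0, and the other 4, near 0, each changed sign without some mouse. Between mice 81 genes passed, 23 to 88 without 1 mouse (23 without mouse 61, 53 without 66, 39 without 68) and 41 without mice 65 and 68. Members passing fell from 2 to 1 with no filter, with a filter at a mean of 5 CPM (which drops Atf5), with Hspa1a and Hspa1b summed, without mice 65 and 68, and without mouse 61, 66 or 68 alone; without mouse 64 there were 3. Between fellow eyes 48 genes passed, 19 with a filter at 5 CPM, 23 to 54 without 1 mouse (30 without mouse 65, 23 without 68) and 4 without mice 65 and 68. No member passed between fellow eyes in any of these. Nupr1 was also lost with a pseudocount of 0.1 CPM (adjusted p = 0.0675) and no filter (0.231), and Slc7a11 passed with libraries rescaled (0.0346) or median centred (0.038) and without mouse 64 (0.0258) or 66 (0.0347). As to depth, 1 CPM rested on at least 89.2 counts in every library.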

Other observations

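The cold-inducible RNA-binding protein gene Cirbp, which was named after its values were seen, also differed between mice (limma F-test, range 0.52 log2 units, adjusted p = 0.0142). It was highest in mouse 61 and lowest in mouse 66, at 51.8, 44.6, 45.4, 35.1 and 39.1 CPM in left eyes and 48.2, 39.9, 47.1, 33.9 and 36.2 CPM in right eyes in mice 61, 64, 65, 66 and 68. Rbm3, another cold-inducible gene, was at 32.8, 34.2, 34.9, 33.1 and 34.0 CPM in left eyes and 33.7, 35.5, 34.4, 31.0 and 34.1 CPM in right eyes and did not pass (adjusted p = 0.58). Cryab, a small heat shock protein gene that the lens expresses in bulk, belongs to none of the lists used and reached 111 CPM in the right eye of mouse 65, against 2.63 to 11.7 CPM elsewhere (adjusted p = 0.000673 between fellow eyes), while Hspb1 in that retina was at 0.407 CPM, within its range of 0.292 to 0.624 CPM.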
